A study of Mus musculus with 4 samples.

Results

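The genes of transforming growth factor beta (TGF-beta), bone morphogenetic protein (BMP) and activin signalling were examined in mouse monocytes exposed to retinoic acid. The set comprised every probe set annotated to exactly 1 gene among the TGF-beta, BMP, activin and inhibin ligands, the Tgfbr, Bmpr and Acvr receptors, the latent TGF-beta binding proteins (Ltbp), the Smads, the Smurf ubiquitin ligases, and Id1, Id3, Ski, Skil and Tgif1. There were 51 such probe sets of 41345 on the array, 1 for each of 51 genes, of 22180 genes with a probe set of their own. The members were chosen by name, not by their values, although earlier results of these data were known. A further 3 probe sets shared their annotation with a second gene (Bmpr2, Ltbp2 and Bmp2k in part) and were left out by this rule. The name patterns also took in Bmp1, which encodes a procollagen protease, and Bmp2k, which encodes a kinase; neither is a ligand.

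The cells were Ly6C-high monocytes, enriched and then sorted from bone marrow pooled from 3 mice, and every sample was cultured with the cytokines GM-CSF and interleukin 4 (20 ng per ml each), which drive monocytes toward dendritic cells. All-trans retinoic acid at 100 nM, or DMSO as its solvent control, was present from the start, and RNA was taken after 24 h (day 1). There were 2 arrays per group, 4 in all; mouse strain, sex and age were not stated in the labels used here. The labels do not say whether replicates were separate cultures, so the p-values cover no more than the variation among these samples, possibly technical.

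Ligands of this family bind pairs of type I and type II receptor kinases. The type I receptor then phosphorylates receptor-regulated Smads: Smad2 and Smad3 after TGF-beta or activin, and Smad1, Smad5 and Smad9 after BMP. These join Smad4 and enter the nucleus, while Smad6 and Smad7 inhibit the cascade. TGF-beta itself is secreted in a latent form, tethered by anchoring proteins until integrins or proteases release it. In the myeloid lineage TGF-beta is known for its part in forming Langerhans cells and microglia, and Id1, Id2 and Id3 are known as target genes of BMP signalling.

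Levels are log2 intensities, and differences are the mean with retinoic acid minus the mean with DMSO, with limma's standard error (SE). A gene is said to have risen or fallen where limma's p, adjusted by the Benjamini-Hochberg method over 39720 probe sets, was under 0.05. Levels under 6.35, the 95th percentile of the mean level of 1400 probe sets for olfactory and vomeronasal receptors, are called dim; 36 members lay above it in their mean over all arrays and 15 under it. Of the 51 members, 3 fell (Id1, Acvr1b and Id3) and 1 rose (Ltbp3), which is 7.84% of the members where 2.09% of all tested probe sets were called. Taken by direction, 0.904% of all tested probe sets rose and 1.19% fell. Among probe sets with 1 symbol above the dim level 5.03% were called (2.07% higher and 2.96% lower), beside 11.1% of the 36 members there (4 genes). No test was made of whether these shares differ. The retinoic acid and DMSO arrays did not overlap for 29 members, or 56.9%, where 44.0% of all tested probe sets did not overlap: 14 were higher (27.5%, beside 20.7% of all) and 15 lower (29.4%, beside 23.3%). Above the dim level the share was 72.2% of the 36 members (33.3% higher and 38.9% lower). Beside it stood 55.8% of the probe sets with 1 symbol there (30.3% higher and 25.5% lower). These shares were not tested against each other either. An unadjusted p under 0.05 (limma) was found for 16 of the 51 members, beside 5335 of the 39720 tested probe sets. Above the dim level it was found for 15 of the 36 members, beside 3979 of 19762 probe sets. The median difference of the members was 0.01, beside -0.01 over all tested probe sets, and 29 members had a positive and 22 a negative difference. No member changed sign under the other scalings tried (quantile normalization, median centring and an added offset). The deposited values were already quantile normalized and the array medians lay close together, so these scalings could change little.

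**Figure D1:**
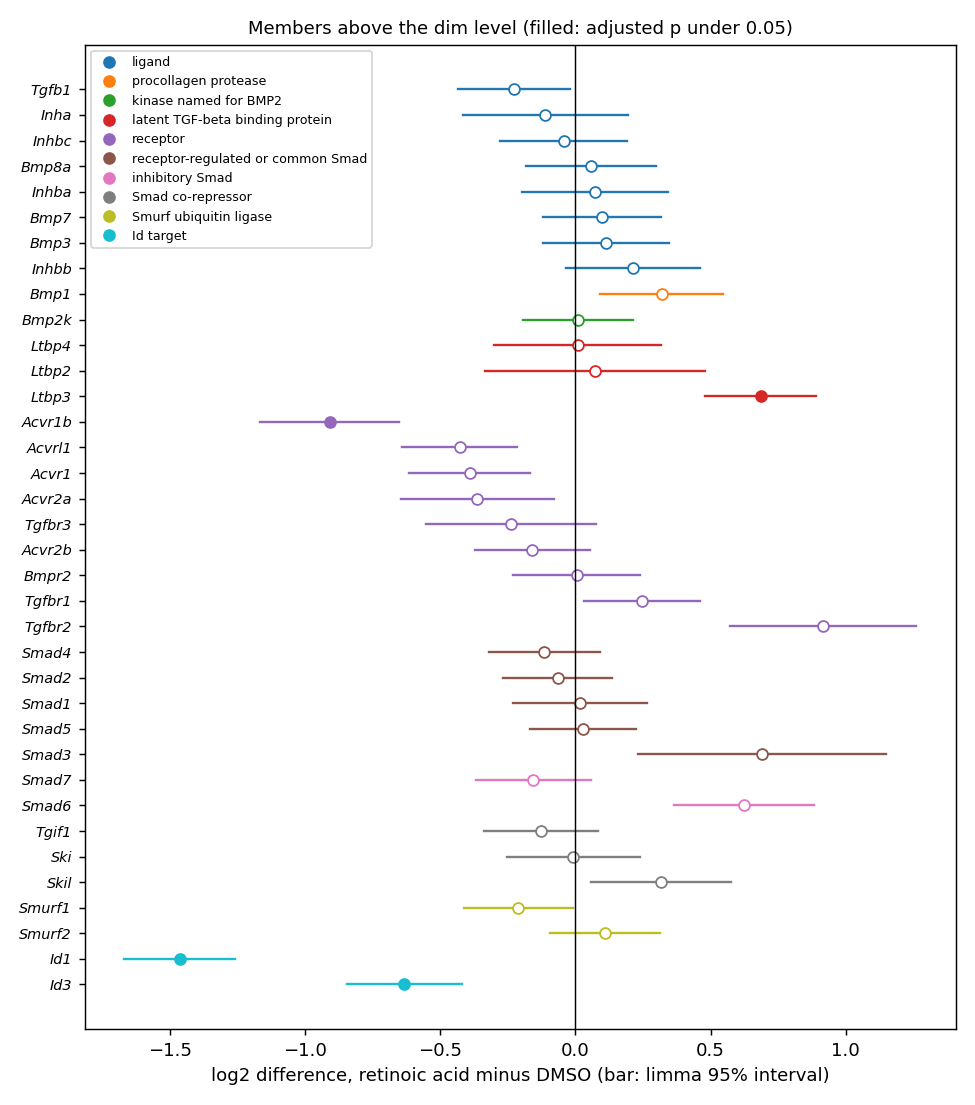
Difference in log2 intensity, retinoic acid minus DMSO, of the 36 members above the dim level, grouped and coloured by role; points are means of 2 arrays per group, bars are limma's unadjusted 95% intervals, and filled points passed the adjusted threshold. Id1 (-1.46), Acvr1b (-0.91) and Id3 (-0.63) lie to the left and Ltbp3 (0.69) to the right, while Tgfbr2 (0.92) lies as far right as any but is open.

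The Id genes, which encode helix-loop-helix proteins that block the DNA binding of E proteins, were both lower with retinoic acid. Id1 (probe set 17377778) read 9.34 and 9.28 with DMSO and 7.83 and 7.87 with retinoic acid. All 4 values lay above the dim level and the groups were far apart relative to their spread. Id1 fell 2.76-fold, by 1.46 on the log2 scale (SE 0.08, adjusted p = 0.00595), the 211th largest difference in size among all tested probe sets. Id3 (probe set 17420016) read 8.64 and 8.66 with DMSO and 7.97 and 8.07 with retinoic acid. It fell 1.55-fold, a smaller step than that of Id1 (difference -0.63, SE 0.08, adjusted p = 0.0407). In the fits that left out any 1 of the 4 arrays, the difference of Id1 kept its size but not its call (adjusted p = 0.0621 to 0.0734), and Id3 lost its call as well (0.153 to 0.265); Id3 also missed the threshold after quantile normalization (0.0515). Fits without 1 array called far fewer of all tested probe sets than the reported setting did. A call lost in them, here or below, is therefore not particular to that gene. In bulk samples fewer cells that express a gene and less RNA per cell cannot be told apart, here and for every member.

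**Figure D2:**
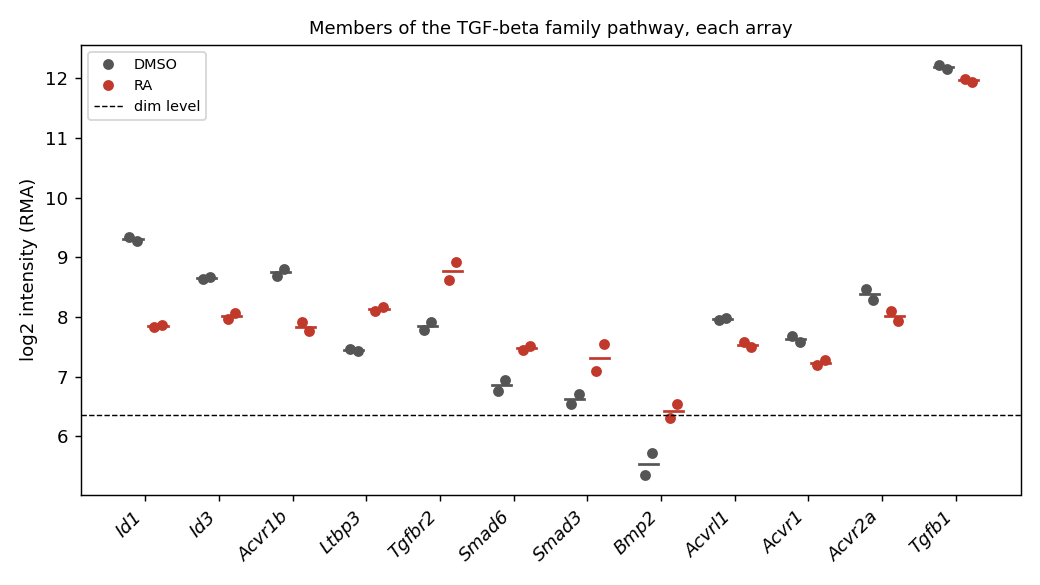
Log2 intensity on each array of 12 members: grey points are the 2 DMSO arrays, red points the 2 retinoic acid arrays (RA), short lines the group means, and the dashed line the dim level of 6.35. The 4 members that passed stand first, and Bmp2 is the only member shown whose DMSO values lie under the dim level. Heights of different genes are not comparable, since each rests on its own probes.

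Promoters of the members that passed are shown because the retinoic acid receptors and the Smads act through short DNA elements. RefSeq windows (GRCm38.p6) of the 250 bases before the start of transcription were at hand for Id3, Acvr1b and Ltbp3, and are printed 5′ to 3′ along the gene; capitals mark matches to GGAGCC on either strand, a GC-rich element bound by BMP Smads.
Id3, chr4:136143572-136143821, + strand: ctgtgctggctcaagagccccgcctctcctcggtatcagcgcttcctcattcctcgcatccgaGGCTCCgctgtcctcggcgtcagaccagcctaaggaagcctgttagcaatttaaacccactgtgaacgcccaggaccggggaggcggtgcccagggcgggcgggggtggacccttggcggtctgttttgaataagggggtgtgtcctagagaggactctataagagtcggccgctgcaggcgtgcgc
Acvr1b, chr15:101173822-101174071, + strand: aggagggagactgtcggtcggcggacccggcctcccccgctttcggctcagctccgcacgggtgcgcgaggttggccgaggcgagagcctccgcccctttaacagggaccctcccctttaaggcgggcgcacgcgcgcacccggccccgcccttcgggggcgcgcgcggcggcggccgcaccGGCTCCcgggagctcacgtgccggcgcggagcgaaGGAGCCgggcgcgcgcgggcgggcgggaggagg
Ltbp3, chr19:5740650-5740899, + strand: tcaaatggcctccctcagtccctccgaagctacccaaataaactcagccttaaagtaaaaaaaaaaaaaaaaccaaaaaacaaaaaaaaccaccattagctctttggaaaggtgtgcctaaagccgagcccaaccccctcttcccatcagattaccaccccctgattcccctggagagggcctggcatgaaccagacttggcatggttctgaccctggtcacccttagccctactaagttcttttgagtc
The Id3 window held 1 match, 187 bases before the start, and the Acvr1b window 2, beginning 68 and 33 bases before it; the Ltbp3 window held none. Of 32851 RefSeq windows of this length 26% held GGAGCC, so such matches are frequent. Among the 39 member genes with a window 21 held it, members that did not pass such as Acvr2b and Tgfb1 included. The letters AGGTCA and AGTTCA (half-sites of retinoic acid receptors), GGCGCC (another BMP Smad element), CAGACA and GTCTAGAC (Smad-binding letters) were searched on both strands as well and were in none of the 3 windows; 14%, 11.8%, 9.59%, 17.1% and 0.167% of all windows held them. The matches that are marked do not overlap each other. These matches describe the letters in the windows and do not show binding.

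None of the 18 ligand genes passed the test with limma. Of these 18, 2 had an unadjusted p under 0.05 (Tgfb1 and Bmp2), beside 5335 of the 39720 tested probe sets. Tgfb1, which encodes the main TGF-beta of blood cells, read 12.22 and 12.16 with DMSO and 11.99 and 11.94 with retinoic acid. The groups did not overlap, but the step was small: -0.23 (95% interval -0.43 to -0.02, adjusted p = 0.329). Tgfb2 and Tgfb3 lay under the dim level on every array, between 5.61 and 6.04. Inhba, whose product forms activin A, lay above the dim level at 7.59 and 7.57 with DMSO and at 7.54 and 7.76 with retinoic acid, and the groups overlapped (difference 0.07, 95% interval -0.20 to 0.34, adjusted p = 0.827). Inhbb, the subunit of activin B, differed by 0.21 (SE 0.09, adjusted p = 0.438). Differences of the other ligands above the dim level, Bmp3, Bmp7, Bmp8a, Inha and Inhbc, lay between -0.11 and 0.11, with adjusted p from 0.672 to 0.893.

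Bmp2, a ligand of the BMP branch, had the largest difference among the 15 dim members and is named for that after its values were seen. It read 5.36 and 5.72 with DMSO and 6.30 and 6.54 with retinoic acid. The groups did not overlap, and with retinoic acid the values straddled the dim level. Its difference was 0.88 (SE 0.16, unadjusted p = 0.0032, adjusted p = 0.0945), measured against background with DMSO. The other 9 dim ligands differed by -0.03 to 0.13, and such values do not show whether those genes responded. Bmp1, the procollagen protease, differed by 0.32 (SE 0.09, adjusted p = 0.218), with its retinoic acid arrays (7.03 and 7.16) above its DMSO arrays (6.75 and 6.79). Bmp2k, the kinase, differed by 0.01 (SE 0.08, adjusted p = 0.979).

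Of the 4 genes of the latent TGF-beta binding proteins, matrix proteins of which not all bind latent TGF-beta, Ltbp3 rose. It read 7.47 and 7.42 with DMSO and 8.10 and 8.16 with retinoic acid (probe set 17356526). Both groups lay above the dim level and were tight, and the increase was 1.61-fold (difference 0.69, SE 0.08, adjusted p = 0.0298). Without any 1 array its adjusted p was 0.140 to 0.222. Ltbp2 and Ltbp4 lay just above the dim level with overlapping groups (differences 0.07 and 0.01, SE 0.16 and 0.12, adjusted p = 0.900 and 0.987), and Ltbp1 lay under it on every array (5.59 to 5.83).

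Among the 12 receptor genes 1 fell and none rose. Of these 12, 6 had an unadjusted p under 0.05 (limma), beside 5335 of the 39720 tested probe sets. Acvr1b, which encodes ALK4, the type I receptor of activin, read 8.69 and 8.80 with DMSO and 7.92 and 7.76 with retinoic acid (probe set 17315152). The groups were separated by several times their spread, and Acvr1b fell 1.88-fold (difference -0.91, SE 0.10, adjusted p = 0.0270). Without any 1 array its adjusted p was 0.110 to 0.197.

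Tgfbr2, the type II receptor that binds TGF-beta, differed by about as much in the other direction and narrowly missed the threshold. It read 7.77 and 7.92 with DMSO and 8.61 and 8.91 with retinoic acid. The groups did not overlap, and retinoic acid replicate 2 was the higher of its pair. Its difference was 0.92 (SE 0.13, 95% interval 0.57 to 1.26, 1.89-fold, adjusted p = 0.0527). The call turned with the setting: adjusted p was 0.0465 after median centring and 0.036 with an intensity trend in the prior, and 0.108 to 0.237 without any 1 array. Tgfbr1, which encodes ALK5, its type I partner, read 8.42 and 8.36 with DMSO and 8.68 and 8.60 with retinoic acid, a difference of 0.25 (SE 0.08, adjusted p = 0.306). For both TGF-beta receptor chains the retinoic acid arrays thus lay above the DMSO arrays, without a call for either.

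The activin and BMP receptors otherwise read lower or level with retinoic acid. Acvrl1, which encodes ALK1, the type I receptor for BMP9 in endothelium, read 7.95 and 7.98 against 7.58 and 7.49 (difference -0.43, SE 0.08, adjusted p = 0.104). Acvr1, encoding the BMP type I receptor ALK2, read 7.67 and 7.58 against 7.19 and 7.28 (difference -0.39, SE 0.09, adjusted p = 0.141). Acvr2a, a type II receptor shared by activins and BMPs, read 8.46 and 8.29 against 8.10 and 7.93 (difference -0.36, SE 0.11, adjusted p = 0.254). In these comparisons the DMSO values come first, and the groups of each gene did not overlap, although none passed. The related type II receptor Acvr2b differed by -0.16 (SE 0.08, adjusted p = 0.502) and the co-receptor Tgfbr3, also called betaglycan, by -0.24 (SE 0.12, adjusted p = 0.494). Tgfbr3 lay near the dim level, with a mean of 6.50 with DMSO and, under that level, of 6.27 with retinoic acid. Bmpr2, the BMP type II receptor, was level at 11.18 and 11.28 against 11.18 and 11.29, and the 95% interval of its difference ran from -0.23 to 0.24 (adjusted p = 0.992). Of the 9 receptors above the dim level, 6 had every retinoic acid array under every DMSO array and 2 the reverse, where 25.5% and 30.3% of the probe sets with 1 symbol above the dim level did so (55.8% in either direction). Bmpr1a, Bmpr1b and Acvr1c, type I receptors, lay under the dim level on every array.

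None of the 6 receptor-regulated and common Smads passed with limma, and 1 had an unadjusted p under 0.05, Smad3. Smad3, which carries the TGF-beta and activin signal, read 6.55 and 6.71 with DMSO and 7.09 and 7.55 with retinoic acid. Its retinoic acid arrays stood apart from each other by more than the DMSO arrays did, and the DMSO values lay near the dim level. The difference was 0.69 (SE 0.18, adjusted p = 0.189). Smad2, its partner in that branch, differed by -0.06 (95% interval -0.27 to 0.14, adjusted p = 0.793), and the shared Smad4 by -0.12 (95% interval -0.32 to 0.09, adjusted p = 0.620). In the BMP branch Smad1 differed by 0.02 (95% interval -0.23 to 0.27) and Smad5 by 0.03 (95% interval -0.17 to 0.23), with adjusted p of 0.967 and 0.918, while Smad9 lay under the dim level on every array.

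The inhibitory Smads had differences of opposite sign, and neither passed (limma; 1 had an unadjusted p under 0.05). Smad6, which acts mainly on the BMP branch, read 6.76 and 6.95 with DMSO and 7.44 and 7.51 with retinoic acid, a difference of 0.62 that missed the threshold (SE 0.10, adjusted p = 0.0676). Smad7, the inhibitor of both branches, read 7.25 and 7.29 with DMSO and 7.16 and 7.07 with retinoic acid (difference -0.16, SE 0.08, adjusted p = 0.508). The difference between these responses was not tested.

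Regulators downstream of the receptors showed small differences. Skil, which encodes the Smad co-repressor SnoN, read 8.40 and 8.60 with DMSO and 8.81 and 8.83 with retinoic acid (difference 0.32, SE 0.10, adjusted p = 0.273). Ski, its relative, overlapped between groups (difference -0.01, 95% interval -0.25 to 0.24, adjusted p = 0.987), and Tgif1, a homeodomain co-repressor of Smads, differed by -0.13 (SE 0.08, adjusted p = 0.591). The ubiquitin ligase gene Smurf1 differed by -0.21 (SE 0.08, adjusted p = 0.350) and Smurf2 by 0.11 (SE 0.08, adjusted p = 0.641). None of these 5 genes passed with limma, and Skil and Smurf1 had an unadjusted p under 0.05.

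Beyond the members, 6 lists of other pathway genes held 101 measured genes of 112 listed. Of these 3 rose, 8 fell and 90 did not pass, or 10.9% called, beside the 2.09% over all tested probe sets; the median difference was -0.02. Of the 75 list genes above the dim level 14.7% were called, beside 5.03% of the probe sets with 1 symbol there. Whether the shares differ was not tested. Genes that release or anchor latent TGF-beta held 5 of the 11: of 15 measured, 2 rose and 3 fell.

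Furin, the proprotein convertase that cleaves TGF-beta precursors, read 10.63 and 10.86 with DMSO and 8.98 and 9.09 with retinoic acid, and fell 3.27-fold (difference -1.71, SE 0.11, adjusted p = 0.00857). Lrrc32, which encodes GARP, a cell-surface anchor of latent TGF-beta, read 10.16 and 9.63 with DMSO and 8.26 and 8.18 with retinoic acid, and fell 3.19-fold (difference -1.67, SE 0.19, adjusted p = 0.0290). Thbs1, encoding thrombospondin 1, an activator of latent TGF-beta, read 8.96 on both DMSO arrays and 7.27 and 7.80 with retinoic acid, and fell 2.68-fold (adjusted p = 0.0424). For each of these genes every DMSO array lay above every retinoic acid array. Nrros, the anchor of latent TGF-beta on microglia and other macrophages, read 10.58 and 10.49 with DMSO and 9.99 and 10.03 with retinoic acid (difference -0.52, SE 0.08), but did not pass (adjusted p = 0.0643).

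Itgb5, whose product pairs with integrin alpha v, moved the other way. It read 6.78 and 7.07 with DMSO and 8.46 and 8.69 with retinoic acid, a 3.13-fold increase (difference 1.65, SE 0.14, adjusted p = 0.0156). Mmp9, a matrix protease able to release TGF-beta, read 7.61 and 7.66 with DMSO and 8.46 and 8.83 with retinoic acid, a 2.01-fold increase (adjusted p = 0.0494). Itgav, which encodes alpha v itself, differed by -0.09 (SE 0.08, adjusted p = 0.695), and Itgb8, a beta chain known for TGF-beta activation, lay under the dim level on every array (5.65 to 5.91). Genes of this list therefore rose and fell, with a list median of -0.02. None of the 5 calls held in the fits without any 1 array, where adjusted p ran from 0.064 to 0.0827 for Furin, 0.0585 to 0.172 for Lrrc32, 0.0548 to 0.249 for Thbs1, 0.0756 to 0.105 for Itgb5 and 0.0827 to 0.264 for Mmp9. Calls were lost in the fits without 1 array over most of the tested probe sets called in the reported setting, not for these genes alone. After quantile normalization the calls of Thbs1 and Mmp9 were lost, and with an added offset that of Mmp9.

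**Figure D3:**
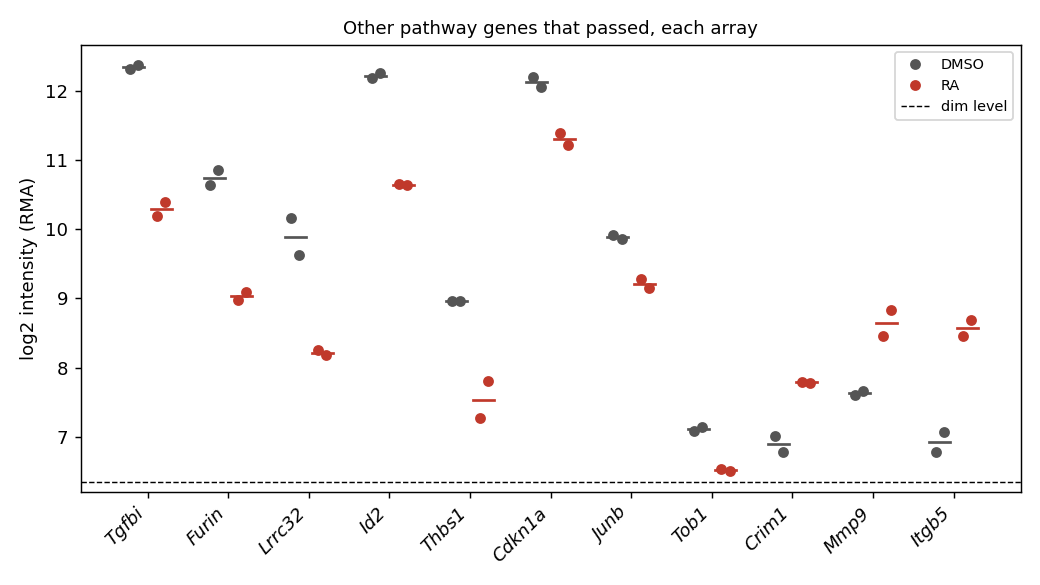
Log2 intensity on each array of the 11 pathway genes outside the member set that passed, ordered by their difference; grey points are the 2 DMSO arrays, red points the 2 retinoic acid arrays (RA), short lines the group means, and the dashed line the dim level of 6.35. The groups of each gene are apart, with Tgfbi showing the largest fall (4.13-fold) and Itgb5 the largest rise (3.13-fold).

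Of 18 measured target genes of the pathway, 4 fell and none rose, with a list median of -0.16. Over all tested probe sets 1.19% fell, and 2.96% of those with 1 symbol above the dim level. Whether these shares differ was not tested. The list was not split by whether signalling raises or lowers each gene, so its counts and median are no measure of pathway output. Tgfbi, a secreted matrix protein named for its induction by TGF-beta, read 12.31 and 12.37 with DMSO and 10.19 and 10.39 with retinoic acid. It fell 4.13-fold (difference -2.04, SE 0.10, adjusted p = 0.00488), and passed without retinoic acid replicate 2 (adjusted p = 0.0441) but not without any 1 of the other arrays (0.0581 to 0.0658). Id2, a relative of Id1 and Id3 that some kinds of dendritic cell need, read 12.18 and 12.25 with DMSO and 10.65 and 10.64 with retinoic acid. This was a 2.97-fold fall (limma, adjusted p = 0.00488), and its call was lost without any 1 array. Id4 lay at the dim level in both groups (6.35 to 6.45).

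Cdkn1a, the cell cycle inhibitor p21, fell 1.76-fold (difference -0.82, SE 0.10, adjusted p = 0.0388), and the AP-1 factor gene Junb fell 1.60-fold (difference -0.68, SE 0.09, adjusted p = 0.0398). Without any 1 array their adjusted p was 0.125 to 0.201 and 0.136 to 0.230. Klf10, a factor first described as TGF-beta inducible, differed by -0.56 (SE 0.08, adjusted p = 0.0527), and Runx3, a factor that acts downstream of TGF-beta in Langerhans cells, by -0.85 (SE 0.13, adjusted p = 0.0637). Both missed the threshold in the reported setting. Klf10 passed after quantile normalization, with an added offset and with an intensity trend in the prior, and Runx3 with the trend. Both passed when only probe sets with 1 symbol, or only those above the dim level, were tested. Neither passed after median centring, with constant probe sets kept or with the replicate block. Klf11, the relative of Klf10, differed by -0.26 (adjusted p = 0.326) and Myc by 0.27 (adjusted p = 0.284). Pmepa1, a Smad-induced feedback inhibitor counted among the Smad regulators, overlapped between groups, at 8.59 and 8.26 with DMSO and 8.33 and 8.31 with retinoic acid (difference -0.10, SE 0.13, adjusted p = 0.805).

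These target genes answer to other signals too. Junb is also among the genes listed for stress and the immediate early response, whose summed level was 13.45 to 13.48 with DMSO and 13.13 to 13.16 with retinoic acid (log2 of the summed intensities). Of its 15 genes, all above the dim level in their mean, Junb and Ier3 fell and none rose. Its part in the results above was not tested.

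The remaining lists held few calls. Of 18 extracellular antagonists, Crim1, a transmembrane protein that binds BMPs, rose 1.86-fold (7.01 and 6.78 with DMSO, 7.80 and 7.78 with retinoic acid, adjusted p = 0.0331), and none fell. Bambi, a decoy receptor in the same list, differed by 0.20 (SE 0.08, adjusted p = 0.393). Of 25 regulators of Smads, Tob1, an antiproliferative protein that binds Smads, fell 1.51-fold (7.08 and 7.14 with DMSO, 6.53 and 6.50 with retinoic acid, adjusted p = 0.0420), and none rose. Itch differed by 0.73 (SE 0.11, limma adjusted p = 0.0665) and Usp11 by 0.53 (SE 0.08, adjusted p = 0.0599), and neither passed. Of the 25 differences 7 were positive and 18 negative, and 6 had an unadjusted p under 0.05. The call of Tob1 was lost with an intensity trend in the prior, and without any 1 array Tob1 stood at 0.171 to 0.278 and Crim1 at 0.114 to 0.177. The limma test called none of the 13 other ligands, of which 1 had an unadjusted p under 0.05, and none of the 12 co-receptors and anchors, of which 3 did. Cav1, a caveolin that takes part in TGF-beta receptor uptake, came nearest among the latter (difference -0.93, SE 0.13, adjusted p = 0.0534).

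The arrays carried the monocyte genes that the sort calls for: Ly6c2, Ccr2, Csf1r, Itgam and Lyz2 lay above the dim level in both groups, among 9 of 9 measured markers. Of these 9, Spi1 and Ptprc fell and none rose. All 7 NK cell markers lay under the dim level, as did 6 of 7 B cell markers and 5 of 7 T cell markers. The B cell marker above it, Cd79b, a chain of the B cell receptor complex, rose 1.57-fold (adjusted p = 0.0471), and the B cell list summed to 8.70 to 8.73 with DMSO and 8.975 to 8.997 with retinoic acid. Among 10 neutrophil and granule genes 9 lay above the dim level, with a summed level of 14.07 to 14.12 with DMSO and 13.93 to 13.96 with retinoic acid. Of these 10, the chemokine receptor gene Cxcr2 fell 2.22-fold (adjusted p = 0.0167) and Retnlg, under the dim level on every array, rose 2.09-fold (adjusted p = 0.0227). Elane differed by 0.21 and Mpo by -0.14 without passing, and 3 of the 10 differences were positive and 7 negative. Stem and progenitor genes, 6 of 8 above the dim level, summed to 10.77 to 10.82 with DMSO and 10.56 to 10.61 with retinoic acid. None of these 8 passed, and Cd34 differed by -0.50, Flt3 by -0.34, Kit by -0.07 and Meis1 by 0.15. Of the 8, 7 had a negative difference, and such sums weigh the brightest genes most. Eosinophil, basophil and mast cell genes summed to 9.56 to 9.64 with DMSO and 9.74 to 9.82 with retinoic acid, with 5 of 8 above the dim level. In the latter list Siglecf, a lectin of eosinophils, rose 1.52-fold (adjusted p = 0.0488), while Gata2 differed by -0.42 and Mcpt8 by -0.25 without passing. Stromal and endothelial genes, a possible outside source of matrix and BMP transcripts, summed to 10.03 to 10.06 with DMSO and 10.07 to 10.16 with retinoic acid, with 5 of 10 above the dim level and none called (limma; 0 at an unadjusted p under 0.05). The part of other cells in the results was not tested. Array medians over the tested probe sets lay between 80.0 and 81.8 in linear intensity, and log2 values correlated at 0.993 to 0.994 within groups and at 0.984 to 0.988 between them, as Pearson's r over the tested probe sets of 2 arrays at a time; probe sets are no replicates.

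**Figure D4:**
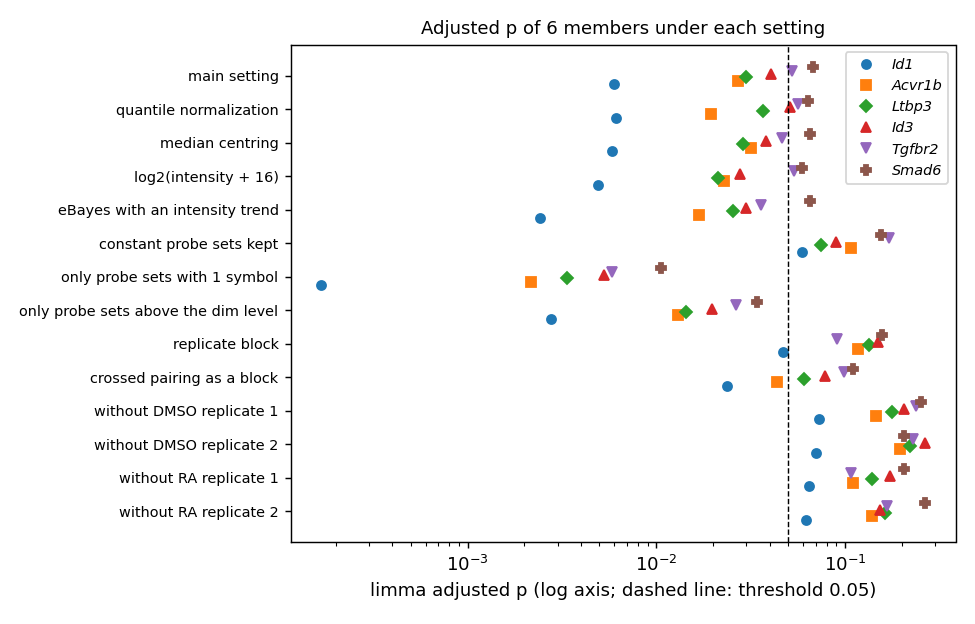
Limma's adjusted p of the 4 members that passed and of Tgfbr2 and Smad6, which came nearest among the others, under the main setting and 13 alternatives; the axis is logarithmic and the dashed line is the threshold of 0.05. All 6 lie to the right of the line without any 1 array and with constant probe sets kept in the fit, and all 6 lie to the left of it when only probe sets with 1 symbol, or only those above the dim level, were tested.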

How the data were processed

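Gene expression was measured on 4 one-colour Affymetrix whole-transcript arrays, from 250 ng of RNA each, per the labels' protocols. The authors deposited an intensity for each probe set on each array, made with Affymetrix Expression Console and RMA (background correction, quantile normalization, probe summary), per the submitters' processing notes; no version or genome build was given in the sources used here. The values were on a linear scale and were transformed to log2 here. RMA's background step shrinks differences of dim genes. The number of arrays limits the precision.

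Of 41345 probe sets, 1625 held a single value on all arrays and were left out: 1624 of them sat at the lowest intensity, 4.78. None of the 1625 had a gene symbol. The remaining 39720 were tested with limma 3.58.1 (R 4.3.3; lmFit and eBayes, two-sided, no covariates, all 4 arrays). An exact permutation test of 2 against 2 arrays cannot go below p = 0.333, and all p-values depend on limma's variance model. The script was tested on simulated data. Gene names came from the platform annotation: 23521 probe sets had 1 symbol, 1814 several and 16010 none. All 51 members matched the RefSeq gene table (GRCm38.p6) without a change of symbol, and 39 had a promoter window there. A gene of a list with several probe sets is given by its probe set of highest mean.

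Members, lists, the dim level and the exclusion of constant probe sets were chosen with earlier results of these data known. The text names every member that passed, or lay above the dim level, and every pathway or marker gene that passed; others are named after their values were seen. Alternatives were other scalings, an offset of 16, a trended prior, other sets of tested probe sets, the replicate number as a block, and leaving out each array.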

Additional observations from a re-analysis of the deposited data

How the results depend on the processing

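Counts of calls depended on the setting, but no gene called in the reported setting changed sign under any alternative. Members that did not pass, with differences of 0.13 or less in size, took the opposite sign in fits without 1 of the arrays, 3 to 14 of them at a time. The reported setting had 1 higher and 3 lower members, and 3 higher and 8 lower genes in the other pathway lists. Over all 39720 tested probe sets it called 359 higher and 472 lower. With the constant probe sets kept, limma called 0 members and 0 list genes in either direction (16 members and 30 list genes at an unadjusted p under 0.05), and 0 of all probe sets (smallest adjusted p = 0.0535). Testing only probe sets with 1 symbol gave 5 higher and 5 lower members and 6 higher and 14 lower list genes. Of the 23521 probe sets in that fit, 757 were called higher and 879 lower. Testing only probe sets above the dim level gave 3 higher members and 5 higher list genes. Of the 19762 probe sets in that fit, 554 were called higher and 680 lower. Median centring and the trended prior each gave 2 higher members, where 358 and 488 of all 39720 probe sets were called higher. The cause of these shifts was not tested. Fits without 1 array also called far fewer of all tested probe sets than the reported setting did. Without any 1 array, which leaves 1 array in a group and assumes that it varies like the others, the counts were 0 to 0 for higher members, 0 to 0 for lower members, 0 to 0 for higher list genes and 0 to 1 for lower list genes (limma; 9 to 14 members at an unadjusted p under 0.05); the 1 was Tgfbi, without retinoic acid replicate 2.

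Replicate numbers were shared between the groups. The deviations of same-numbered arrays from their group means had a weak negative correlation (-0.25 across probe sets). The numbers were not taken as pairs, a choice that so weak a correlation does not settle. With the replicate block, 0 higher and 1 lower member (Id1) and 1 higher and 3 lower list genes passed (13 members at an unadjusted p under 0.05). That fit called 73 higher and 88 lower of all 39720 probe sets. Crossed pairing as a block, chosen after seeing the data, gave 0 higher and 2 lower members and 0 higher and 3 lower list genes. It called 194 higher and 263 lower of all 39720 probe sets. Low signal limits what can be said of the 15 dim members.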
